A study of Mus musculus with 12 samples.

Results

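The loci of 10 genes that restrain WNT signalling were followed through β-catenin and H3K27ac ChIP-seq peak lists of mouse forelimb buds: Axin2, Nkd1, Nkd2, Notum, Rnf43, Znrf3, Apcdd1, Sp5, Dkk1 and Wif1. A summit, the position of highest coverage in a peak, belonged to a locus when it lay within 100 kb of the gene body, and the 10 genes are 10 of the 21938 protein-coding genes of the annotation. Wild-type Swiss Albino embryos at E10.5 had been exposed to C59, which blocks the enzyme porcupine, or to DMSO, and their forelimb buds were dissected 6 h later. Both groups share genotype, stage and time after injection. By the study's methods the C59 solution also held methylcellulose and a detergent, and the control solution was DMSO in buffered saline, so that inhibitor and vehicle cannot be told apart. Each antibody and treatment has 2 replicates. A replicate was a pool of dissected forelimb buds, and cell types were not separated. In such pools, fewer bound cells and less binding per cell cannot be told apart.

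WNT ligands must be lipidated by porcupine before they are secreted. A received WNT signal stabilises β-catenin, which enters the nucleus and joins TCF/LEF proteins on DNA at a short core sequence. Many genes activated in this way encode inhibitors of the same pathway, which makes a negative feedback loop, and Axin2 is the member most often used as a readout of WNT signalling. H3K27ac is an acetylation of histone H3 found at active promoters and enhancers. In the limb bud, WNT signals from the ectoderm act on the underlying mesenchyme.

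In the DMSO consensus list, which holds summits found inside peaks of both replicates, 61 β-catenin summits lay at the 10 loci. In the C59 consensus list 3 remained, all of them at Axin2. Short stretches around summits that hold a TCF/LEF core show what these sites look like, and they are the strongest such summit outside exons for 7 of the genes. The sequences were read from GRCm38 (mm10) on the plus strand, 5′ to 3′, and capitals mark the core, ATCAAAG or TTCAAAG on either strand. They come from Nkd2 at chr13:73833944-73834007, Nkd1 at chr8:88454217-88454267, Axin2 at chr11:108947621-108947669, Wif1 at chr10:121041014-121041114, Notum at chr11:120695450-120695564, Znrf3 at chr11:5415734-5415786 and Sp5 at chr2:70388666-70388722.
Nkd2: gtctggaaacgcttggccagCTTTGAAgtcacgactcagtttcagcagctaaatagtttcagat
Nkd1: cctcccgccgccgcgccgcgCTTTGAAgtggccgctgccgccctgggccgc
Axin2: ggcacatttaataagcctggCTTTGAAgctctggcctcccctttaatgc
Wif1: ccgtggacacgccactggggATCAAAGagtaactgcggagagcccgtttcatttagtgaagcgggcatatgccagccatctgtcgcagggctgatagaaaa
Notum: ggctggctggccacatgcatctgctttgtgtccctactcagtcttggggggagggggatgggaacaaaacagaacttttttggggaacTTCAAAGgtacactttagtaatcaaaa
Znrf3: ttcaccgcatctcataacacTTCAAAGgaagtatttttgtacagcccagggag
Sp5: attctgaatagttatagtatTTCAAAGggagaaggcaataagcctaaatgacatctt

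On the Nkd2, Nkd1 and Axin2 stretches the core lay on the minus strand, and on the other 4 it lay on the plus strand. The centre of the core was 5 bp from the Axin2 summit, 7 bp from the Nkd1 summit, 9 bp from the Znrf3 summit, 13 bp from the Sp5 summit and 20 bp from the Nkd2 summit. It lay further out in Wif1, at 57 bp, and in Notum, at 71 bp. The Wif1 stretch holds ATCAAAG and the other 6 hold TTCAAAG.

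The DMSO replicate lists held 64 and 81 β-catenin summits at the 10 loci, with a mean of 72.5. The C59 replicate lists held 3 each. The ranges of the groups did not overlap, and the difference of the means was 69.5 summits. The whole lists did not overlap either, with 20203 and 25836 summits in DMSO and 330 and 358 after C59. An exact two-sided permutation test gave p = 0.33, which is the smallest value that 2 against 2 replicates allow. Coverage was not lower after C59, since the genome-wide expected coverage was 1.57 and 1.81 fragments in the DMSO libraries and 1.83 and 1.82 fragments in the C59 libraries. The C59 lists were cut at a stricter limit, with a lowest listed −log10 p of 5.69 and 5.72 against 3.89 and 3.79 in DMSO. A site at genome-wide background needed 11 fragments to be listed after C59 and 8 fragments in DMSO, so that a site missing from a C59 list can still hold weaker binding. Of the DMSO replicate summits at the loci, 58 and 71 had a −log10 p at or above the C59 limit, and 3 of each lay inside a peak of either C59 replicate, all at Axin2. These are 5.17% and 4.23%, against 2.14% and 1.86% of all DMSO replicate summits at or above that limit. Summits of the same peak are counted separately in these shares.

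**Figure D1:**
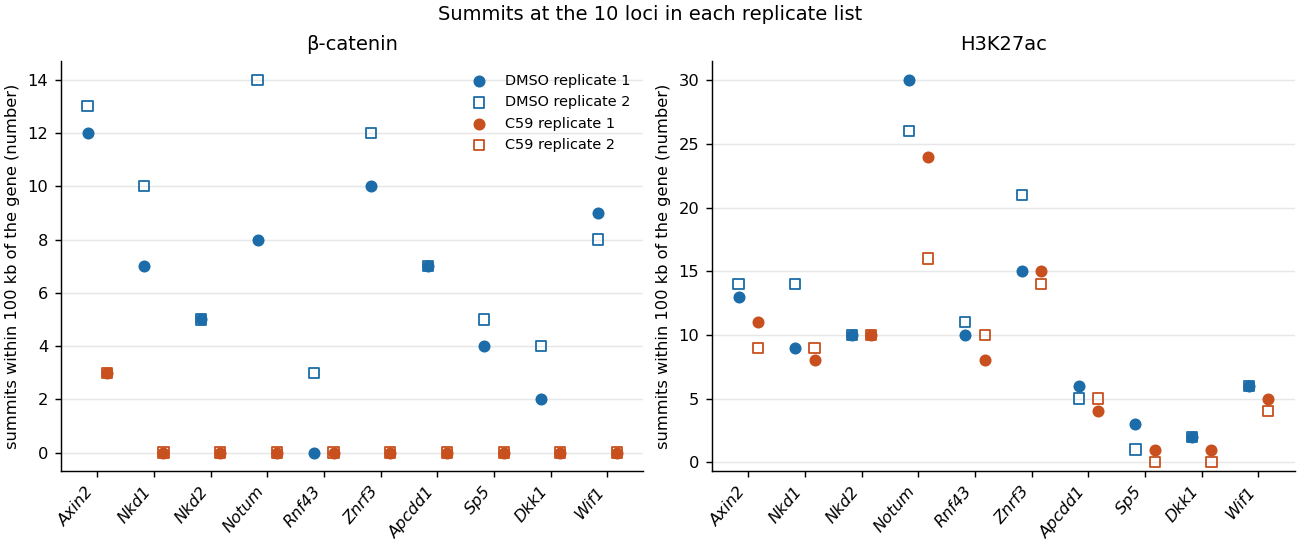
Number of summits within 100 kb of each gene in each replicate list, for β-catenin (left) and H3K27ac (right); blue symbols are DMSO, orange symbols C59, filled circles replicate 1 and open squares replicate 2. β-catenin summits after C59 were listed at Axin2 alone, with 3 in each replicate.

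Across the genome, 1.12% of the 16193 DMSO β-catenin summits lay inside a C59 consensus peak. At the 10 loci the share was 4 of 61, or 6.56% (95% Wilson interval 2.58 to 15.7%, which covers counting error only). All 4 were at Axin2. Those at chr11:108920428, 108920817 and 108921258 are summits of the same DMSO peak, and the remaining one is a distal summit at 109011889. The summit at 108920817 lay in the C59 consensus peak but in neither C59 replicate peak. Summits of the same peak are not independent of each other, which the interval does not take into account. At the other 9 loci the share was 0 of 49, with a Wilson upper limit of 7.27%, and 3 counts of 49 would be 6.12%.

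The feedback genes differed in how many β-catenin summits they carried in DMSO. The consensus list held 12 at Axin2, 9 each at Znrf3 and Notum, 7 each at Nkd1, Apcdd1 and Wif1, 4 each at Nkd2 and Sp5, and 2 at Dkk1. Rnf43 had none in the consensus list, none in DMSO replicate 1 and 3 in DMSO replicate 2, with fold enrichments of 5.00 to 6.96. The median over the 10 genes was 7 summits, against 1 over all protein-coding genes. At least 1 summit was found at 9 of the 10 genes, against 58.8% of all protein-coding genes. The windows differ in length and overlap neighbouring genes. Per megabase, the density was highest at Axin2, with 52.1 summits, and Notum, with 43.4, and the median over the 10 genes was 25.01 against 4.34 over all genes.

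The position of these summits divided the genes into 4 patterns, which the maps of fold enrichment against distance from the gene start show. Summits closer than 1 kb to a transcription start site (TSS) in the annotation are named TSS summits, and all others are distal. At Znrf3 and Sp5 the strongest summit of the locus was the one at the start of the gene. At Axin2, Nkd1, Notum and Dkk1 summits were present at the start, but the strongest one was distal. Nkd2, Apcdd1 and Wif1 had distal summits and none at their own start, and Rnf43 had neither. In all, 11 of the 61 summits lay near a TSS of the feedback gene, 3 near the TSS of a neighbour (Aspscr1, Cenpx and Lemd3) and 47 were distal, which is 77.0%. TSS summits made up 23.0% of the summits at the loci (14.2 to 34.9%), against 16.3% of all β-catenin summits. The median fold enrichment over expected coverage was 8.42 for the distal summits at the loci and 6.27 for those at the genes' own starts. Over all summits the medians were 7.03 for distal and 5.43 for TSS summits. By annotation, 25 of the 61 summits fell in introns, 24 between genes, 8 in UTRs and 4 in exons.

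**Figure D2:**
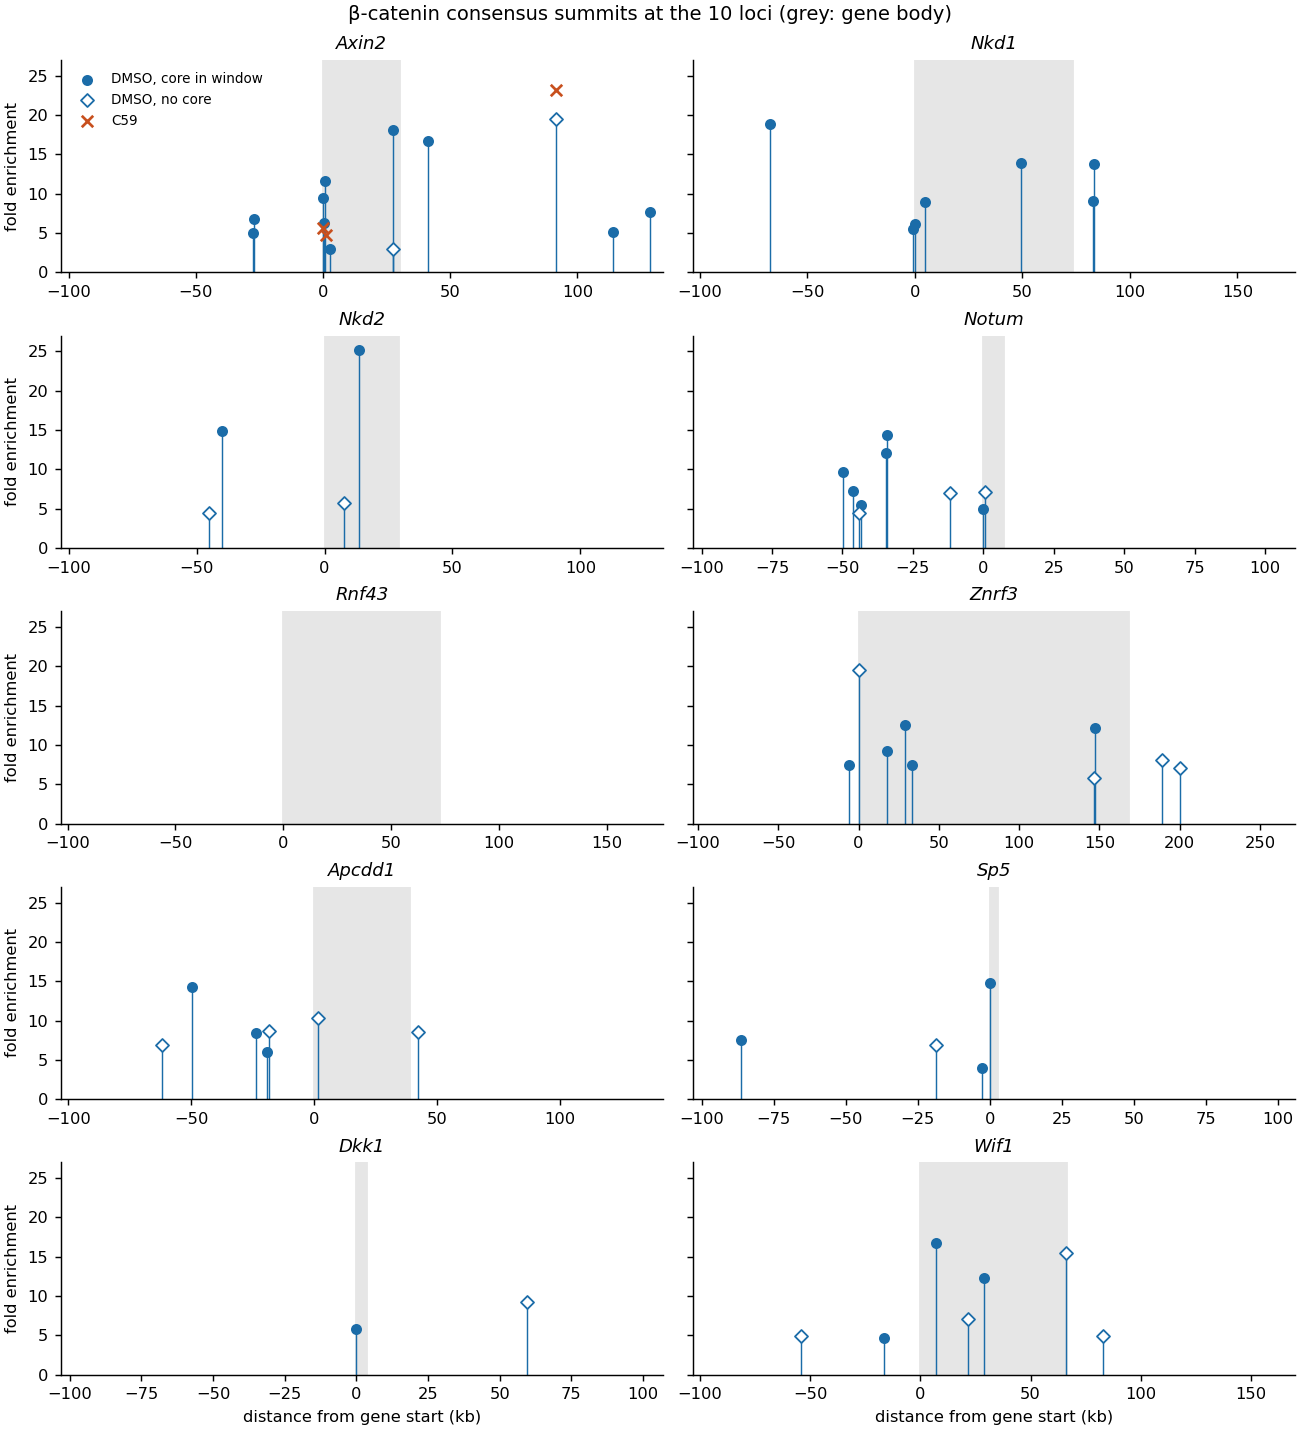
Each panel shows 1 locus, with the distance from the gene start in the direction of transcription (kb) on the horizontal axis and the fold enrichment of β-catenin consensus summits on the vertical axis; grey marks the gene body. Filled blue circles are DMSO summits with a TCF/LEF core within the 200 bp window, open diamonds DMSO summits without one, and orange crosses C59 summits, of which the 3 listed are at Axin2.

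A β-catenin TSS summit was present at 6 of the 10 genes in DMSO, against 9.04% of all protein-coding genes. After C59 it was present at 1 of 10, against 0.0775%. Axin2 encodes the scaffold of the complex that marks β-catenin for destruction. Its start (GRCm38 chr11:108920349, plus strand) held 3 close summits, at 108920428, 108920817 and 108921258, and a weaker one at 108923095. The strongest, at 108921258 in an intron, was enriched 9.9999- and 12.3-fold in the DMSO replicates and 11.6-fold in the consensus. In the C59 replicates the nearest summits had fold enrichments of 4.14 and 3.83. Both C59 values lay below both DMSO values.

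Fold enrichment understates this difference, because the expected coverage around the Axin2 start was itself high in DMSO. At 108921258 the DMSO replicates reached 150 and 214 fragments over an expected 14.1 and 16.5. The nearest C59 summits lay at 108921128 in replicate 1 and at 108921372 in replicate 2. They reached 12 and 13 fragments over an expected 2.14 and 2.65. C59 coverage at 108921258 itself is not known from the lists. At 108920428 the DMSO replicates reached 143 and 155 fragments, with fold enrichments of 9.68 and 9.08. C59 replicate 2 reached 23 fragments there, with a fold enrichment of 6.61. The position also lay inside a C59 replicate 1 peak, but that list held no summit within 200 bp. The nearest listed summit of C59 replicate 1 lay between 108920428 and 108921258, with 14 fragments and a fold enrichment of 4.67.

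The strongest distal summit at the Axin2 locus, between genes at chr11:109011889 and 91.5 kb downstream of the start, behaved differently. Its fold enrichment was 18.5 and 19.1 in DMSO and 21.5 and 19.99 after C59, so that both C59 values lay above both DMSO values. The fragments at the summit numbered 88 and 106 in DMSO and 112 and 113 after C59. It held no TCF/LEF core and lay inside an H3K27ac peak in both treatments. Its DMSO β-catenin peak, from 109011656 to 109012097, had nearly the same edges as the DMSO H3K27ac peak, from 109011653 to 109012089. Regions prone to artefacts were not filtered out here, and whether this site is one was not tested. It is among the shared β-catenin summits counted above. The next strongest summit, in an intron at 108947649 (printed above), had a fold enrichment of 17.1 and 16.7 in DMSO and was in neither C59 list. The summit 41.4 kb from the start, at 108961787, had a fold enrichment of 15.1 and 15.6 in DMSO, held 2 cores and was in neither C59 list. The other distal summits at Axin2 had consensus fold enrichments of 3.01 to 7.62.

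Nkd1 and Nkd2 are the mouse Naked cuticle proteins, which bind Dishevelled and dampen the signal downstream of the receptor. At the Nkd1 start (chr8:88521354, plus strand) 2 summits were listed in DMSO. The stronger one, at 88521289, was enriched 6.01- and 6.03-fold. The strongest summit of the locus lay 67.1 kb upstream at 88454247, where the replicates reached 109 and 133 fragments and 18.4- and 18.5-fold enrichment. All 7 Nkd1 summits held a core. Nkd2 (chr13:73818534-73847631, minus strand) had no summit at its start. Its strongest summit, in an intron 13.6 kb into the gene, had the highest fold enrichment of all 61, at 23.3 and 24.6, with 154 and 177 fragments. No Nkd1 or Nkd2 summit was in a C59 list.

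Znrf3 and Rnf43 are membrane ubiquitin ligases that remove Frizzled receptors from the cell surface. Although they share this role, their loci differed. The Znrf3 start (chr11:5444847, minus strand) was enriched 15.7- and 20.4-fold at 5444843, the highest values at the start of any of the 10 genes, and the site held no core. The strongest distal Znrf3 summit, in an intron at 5415766, had a fold enrichment of 10.7 and 11.7. Of the 9 summits in the Znrf3 window, 5 held a core. Those at 5244761 and 5255931 lay downstream of Znrf3 in introns of Kremen1 and held none. Rnf43 (chr11:87662722-87735539) had no consensus summit and no H3K27ac summit at its start in any list. Both genes were without a β-catenin summit after C59.

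Notum, Dkk1 and Wif1 encode secreted inhibitors: Notum removes the lipid from WNT ligands, Dkk1 blocks the LRP coreceptors and Wif1 binds WNT ligands. The Notum start (chr11:120661175, minus strand) overlaps the antisense gene Notumos and held 2 summits in DMSO. The stronger one, at 120660677, was enriched 6.16- and 6.67-fold and held no core. The strongest distal summit lay 34.3 kb upstream in an intron of Aspscr1, with 13.1 and 14.0. Because 16 other protein-coding genes reach into the Notum window, its distal summits cannot be assigned to Notum by position. The Dkk1 start (chr19:30549665, minus strand) was enriched 5.27- and 4.87-fold, the lowest values among the 6 genes with a summit at their start. The only other Dkk1 consensus summit, 59.7 kb downstream at 30489999, had 5.93 and 10.2 and no core. Wif1 (chr10:121033960-121100650, plus strand) had none at its start, and its strongest summit lay 7.13 kb into the gene in an intron, with 13.7 and 15.7. At all 3 loci no β-catenin summit was listed after C59.

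Apcdd1 is a membrane glycoprotein that binds WNT ligands and LRP coreceptors. The Apcdd1 summits were all distal in both DMSO replicates, with 7 in each. The strongest lay 49.7 kb upstream, with a fold enrichment of 10.1 and 13.4, and the summit closest to the gene lay 1403 bp from a TSS, with 8.79 and 10.3. Sp5 is a zinc finger transcription factor induced by WNT signals. Its start (chr2:70474923, plus strand) held a summit with a fold enrichment of 13.4 and 15.4 and 3 cores within the 200 bp window. The strongest distal Sp5 summit, 86.2 kb upstream in an intron of Myo3b, had 6.94 and 6.72. No C59 list held a summit at either locus.

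Ordered by the strongest summit at the start, the DMSO values ran down from Znrf3 through Sp5, Axin2, Notum and Nkd1 to Dkk1. The 2 replicate values of neighbours in this order did not overlap, but those of 2 pairs came close, with a lowest value of 15.7 at Znrf3 beside a highest of 15.4 at Sp5, and a lowest of 6.16 at Notum beside a highest of 6.03 at Nkd1. These are ratios to the coverage expected at each site, so that the order is not one of fragments: at the Sp5 start 80 and 111 fragments were reached, fewer than the 150 and 214 of Axin2.

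**Figure D3:**
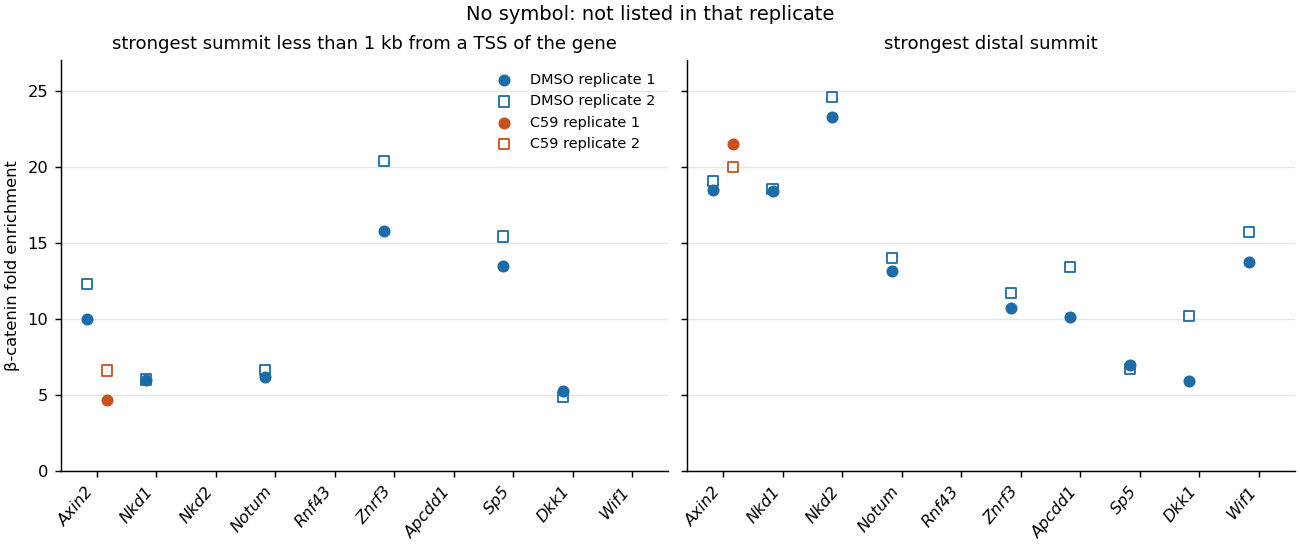
β-catenin fold enrichment in each replicate at the strongest summit less than 1 kb from a TSS of the gene (left) and at the strongest distal summit (right); blue is DMSO, orange C59, filled circles replicate 1 and open squares replicate 2. A missing symbol means that no summit was listed. C59 values exist at Axin2, where the distal summit, at a site not checked against artefact-prone regions, reached 21.5 and 19.99.

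Both strands of the 200 bp around each DMSO consensus summit were searched for a TCF/LEF core. The words ATCAAAG and TTCAAAG differ in their first base and cannot be counted at the same place. A core was present at 40 of the 61 summits, or 65.6% (53.0 to 76.3%), against 28.6% of all β-catenin summits. Near the genes' own starts it was 9 of 11, against 20.3% of all TSS summits. Among distal summits it was 30 of 47, or 63.8% (49.5 to 76.0%), against 30.2% of all distal summits. At 35 summits the nearest core was centred within 50 bp of the summit, and 14 windows held at least 2 cores. The median fold enrichment was 9.05 for the 40 summits with a core and 7.05 for the 21 without. Strong binding without a core was also seen, as at the start of Znrf3. Without the Axin2 locus the share with a core was 61.2%. Of the strongest distal summits, 7 of 9 held a core, and those of Axin2 and Dkk1 did not.

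**Figure D4:**
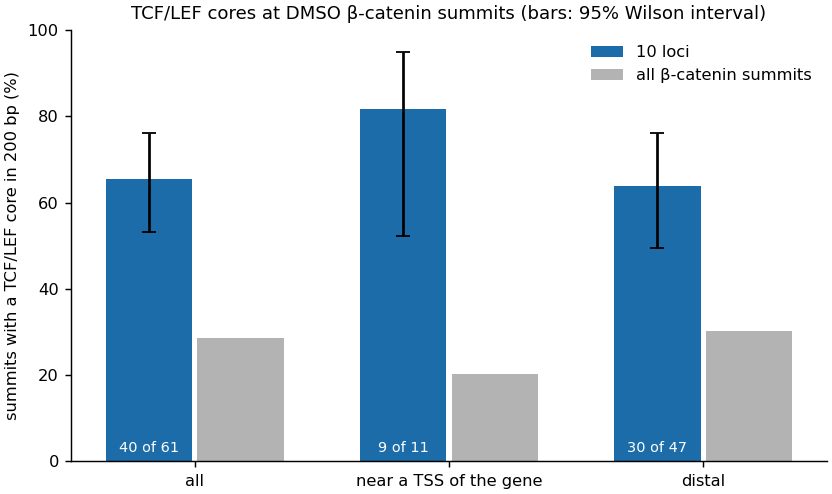
Percentage of DMSO β-catenin consensus summits with a TCF/LEF core within the 200 bp window, for the 10 loci (blue, with 95% Wilson intervals that cover counting error) and for all β-catenin summits of the same class (grey). The loci reached 65.6% over all classes, against 28.6%.

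Other genes of the pathway, taken from lists, were described by the same counts. Of 35 core pathway genes (receptors, ligand partners and signal transducers), 10 carried a β-catenin TSS summit in DMSO and 0 after C59. At 29 of them at least 1 summit lay within 100 kb, with a median of 3. Of 12 genes often described as WNT-responsive, 4 of which are also in the first list, 8 carried a TSS summit in DMSO and 0 after C59, and the median within 100 kb was 5. Over all protein-coding genes, 18 (0.082%) had a TSS summit in each of the 4 β-catenin replicate lists, and Axin2 ranked 13th of them by C59 fold enrichment where one was listed. The first 5 were Gm10800, Gm10717, Ascc3, Gm10719 and Gm10722. Of the 12 genes ranked above Axin2, 8 are predicted genes with a Gm symbol. The study filtered its wild-type consensus summits against a list of artefact-prone regions, which was not applied here, so that this rank may count such regions. Gm10800 had 25.3 and 25.7 in DMSO and 24.5 and 25.4 after C59, whereas Ascc3 had 28.2 and 27.8 in DMSO and 11.4 and 10.1 after C59.

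H3K27ac was compared at the same loci. The tissue check was met in part: all 8 limb bud markers carried an H3K27ac TSS summit in DMSO and 0 of 6 markers of other tissues did, but of the apical ridge markers Fgf8, Sp8 and Dlx5 only Dlx5 did, and the hindlimb gene Tbx4 carried one. After C59 the limb bud markers were at 8 of 8, the apical ridge markers at 0 of 3 and Tbx4 still carried one. The part of the apical ridge cells in the H3K27ac results was not tested. The replicate lists held 104 and 110 H3K27ac summits at the loci in DMSO and 87 and 77 after C59. The groups did not overlap at the loci, and the exact two-sided permutation test again gave its smallest value, p = 0.33. Over the whole lists they did overlap, with 35263 and 37935 summits in DMSO and 37232 and 33180 after C59. With a −log10 q of at least 5 the difference of the means was 13.5 summits in place of 25. By locus, Notum held 30 and 26 summits in DMSO and 24 and 16 after C59, Axin2 held 13 and 14 against 11 and 9, and Nkd2 held 10 in each of the 4 lists. In the Notum window, 23 and 20 of the DMSO summits and 21 and 15 of the C59 summits lay near TSSs of other genes. Near a TSS of Notum there were 1 and 1 in DMSO and 1 and 0 after C59. Over the 10 loci, the distal summits numbered 43 and 51 in DMSO and 31 and 28 after C59. Over the whole lists the distal counts overlapped, with 13521 and 15374 in DMSO and 15579 and 12439 after C59.

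An H3K27ac TSS summit was present at 8 of the 10 genes in DMSO, against 52.2% of all protein-coding genes, and was missing at Rnf43 and Sp5. After C59 it was present at 6, against 51.2%. Notum and Dkk1, 2 of the 8, were no longer in the consensus list, against 3.35% of all genes with one in DMSO. At Notum the fold enrichment was 5.69 and 4.63 in DMSO and 3.59 in C59 replicate 1, with no summit in C59 replicate 2. At Dkk1 it was 4.34 and 4.12 in DMSO and 3.59 in C59 replicate 1, with none in C59 replicate 2. None of the 8 was therefore missing from both C59 replicates, against 0.941% of all genes with one in both DMSO replicates.

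At Axin2 the H3K27ac fold enrichment at the start was 10.52 and 10.6 in DMSO and 16.7 and 15.5 after C59. Both C59 values lay above both DMSO values, in the opposite direction to β-catenin at the same start. These values are those of the highest summit of the region, at 108920607. The other DMSO summits of the region were lower in both C59 replicates. At 108921119 the values were 5.19 and 5.38 in DMSO and 4.27 and 5.05 after C59. At 108921368 they were 4.33 and 4.58 against 3.16 and 3.47. The strongest β-catenin summit of the start lay between these positions. The change of the highest summit was 1.55-fold (0.63 ± 0.11 on the log2 scale, SE). It did not pass limma's test over all 17219 regions with a value in all 4 libraries (adjusted p = 0.40). With the mean of the summits in the region in place of the highest, the log2 change was 0.10. The region of the strongest Nkd1 summit, 67.0 kb upstream, had 11.8 and 11.2 in DMSO and 15.8 and 16.3 after C59, a change of 0.51 ± 0.12 on the log2 scale (limma adjusted p = 0.40). The region of the strongest distal Notum β-catenin summit went the other way, with 3.74 and 4.38 in DMSO and 3.18 and 2.78 after C59. Its log2 change was −0.42 ± 0.12 (limma adjusted p = 0.43). At the other starts with 4 values, the log2 change was −0.22 ± 0.21 for Nkd1, −0.06 ± 0.19 for Wif1, −0.01 ± 0.11 for Znrf3, 0.05 ± 0.24 for Nkd2 and 0.11 ± 0.11 for Apcdd1, with limma adjusted p-values from 0.73 to 0.98. The values of DMSO and C59 overlapped at 4 of these 5 starts, and at Znrf3 they were 13.4 and 13.5 against 12.9 and 13.2.

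Of the 57 H3K27ac regions at the loci, 44 had a value in all 4 libraries. limma called 0 of the 44, and over all regions it called 0% higher and 0% lower after C59. At an unadjusted p under 0.05 there were 5 of the 44 at the loci, or 11.4%, and 1764 of 17219 over all regions, or 10.2%. These shares were close. Higher after C59 among the 5 were the Axin2 start, the upstream Nkd1 region and a Rnf43 region 23.5 kb upstream (log2 change 0.29). Lower were the Notum region named above and a region near a TSS of Pycr1 in the Notum window (log2 change −0.55). Regions without a summit in 1 library or more cannot enter this test. With each missing value set to the lowest fold enrichment of its library, limma called 5 of the 57 regions at the loci. After C59, 4 of them were lower and 1, the Axin2 start by its highest summit, was higher (limma adjusted p = 0.047). Over all 21703 regions this setting called 3.02% higher and 3.95% lower, or 1513 in all. That setting gives both C59 replicates of an unlisted region nearly the same value, which narrows their spread.

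The H3K27ac summits of C59 were all shared: 66 of 66 consensus summits at the loci lay inside a DMSO peak, against 90.9% of all C59 summits. In the other direction, 72 of 91 DMSO summits lay inside a C59 peak, or 79.1% (69.7 to 86.2%), against 89.1% of all DMSO summits. Near a TSS it was 49 of 55, or 89.1% (78.2 to 94.9%), against 95% of all TSS summits. Among distal summits it was 23 of 36, or 63.9% (47.6 to 77.5%), against 77.7% of all distal summits, and without the Axin2 locus it was 65.4%. Of the 36, 23 lay within 1 kb of a DMSO β-catenin summit, and 14 of these were shared, or 60.9% (40.8 to 77.8%), against 82.8% of all such summits. Of the other 13, 9 were shared, or 69.2% (42.4 to 87.3%), against 74.1%. Summits of 1 peak are not independent of each other. By locus, the DMSO summits without a C59 peak numbered 7 at Notum, 4 at Axin2, 3 at Znrf3, 1 each at Nkd1, Rnf43, Sp5, Dkk1 and Wif1, and 0 at Nkd2 and Apcdd1. The 7 in the Notum window comprise summits at the Notum start, distal summits and summits near TSSs of Rac3 and Cbr2.

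**Figure D5:**
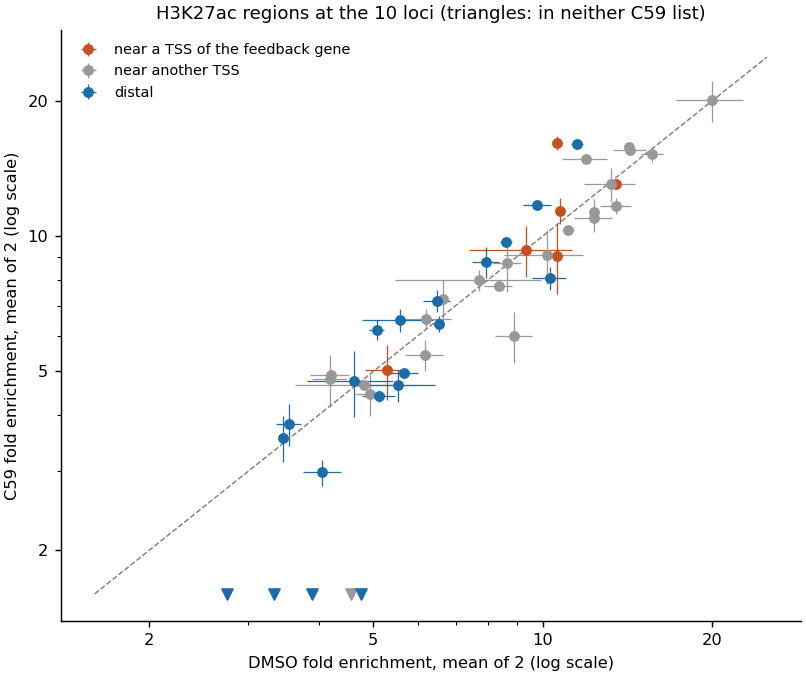
H3K27ac fold enrichment of regions at the 10 loci, DMSO against C59, each the mean of 2 replicates on a log scale with bars from the lower to the higher replicate; circles are the 44 regions with a value in all 4 libraries, colours give regions near a TSS of the feedback gene (orange), near another TSS (grey) and distal (blue), and the dashed line marks equal values. Triangles at the lower edge are the 5 regions listed in both DMSO replicates and in neither C59 replicate, and the highest orange point is the Axin2 start.

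Of the 57 regions, 5 had a summit in both DMSO replicates and in neither C59 replicate, which is 8.77%, against 4.46% of all 21703 regions. The opposite, both C59 replicates and neither DMSO replicate, was found for 0 of 57, against 3.23%. The 5 are named after their values were seen. The Axin2 region 41.7 kb from the start had H3K27ac fold enrichments of 5.27 and 4.25 in DMSO, and holds the β-catenin summit at 108961787. The Wif1 region 7.60 kb into the gene had 4.48 and 3.31, and begins 124 bp from the strongest β-catenin summit of that locus. A Notum region in an Aspscr1 intron had 2.63 and 2.87 and holds a β-catenin summit. A Nkd1 region 65.9 kb upstream had 3.89 and 2.78, and begins 1109 bp from the nearest β-catenin summit. The last lay 689 bp from a TSS of Cbr2 in the Notum window, with 3.52 and 5.60, and its nearest β-catenin summit was 18149 bp away. All 5 had mean DMSO fold enrichments below 5, among the lower values at the loci, and the coverage that an H3K27ac site at genome-wide background needed to be listed was 10 fragments in each DMSO library and 11 in each C59 library.

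Most distal β-catenin summits at the loci lay outside H3K27ac peaks. In DMSO 12 of the 47 lay inside one, or 25.5% (15.3 to 39.5%), against 13.7% of all distal β-catenin summits, and 10 of the 47 lay inside a C59 H3K27ac peak. By gene, and counting TSS summits, 6 of 12 summits at Axin2, 6 of 9 at Notum, 3 of 7 at Nkd1 and 3 of 9 at Znrf3 lay inside a DMSO H3K27ac peak, and 0 at Apcdd1 and Sp5. The start of Sp5, with the second highest β-catenin fold enrichment at a start, was thus listed without H3K27ac in any of the 4 replicate lists.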

How the data were processed

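β-catenin and H3K27ac ChIP-seq of forelimb buds collected 6 h after DMSO or C59 at E10.5 gave 8 replicate lists and 4 consensus lists, and the 4 input samples were not used here. Per the labels' processing notes, the authors used cutadapt 4.1, Bowtie2 2.4.5, MACS2 2.2.7.1 and Picard 2.27.4 on mm10. By the study's methods, peaks were called without input, and a consensus list was called on both replicates together after removing duplicates and sampling to the smallest, keeping summits inside peaks of both. Each deposited row gives a fold enrichment, a ratio of coverage at the summit to the coverage expected there, and the deposited significance as the −log10 of a p-value and of a q-value. Outside a listed peak, a missing summit is thus a value below the listing limit, and consensus values carry no error of their own.

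Summits were read on GRCm38 with GENCODE M21, where 0 peaks passed a chromosome end. Coverage and expected coverage in fragments were solved from fold enrichment and p, to within 0.01 of the deposited −log10 p, and the lowest expected coverage of a list measures its depth. Replicate values are those of the summit within 200 bp of the consensus summit, and can be missing inside a listed peak. H3K27ac regions are the merged consensus regions of both treatments, valued by the highest summit of each library, and log2 fold enrichment, centred on each library's median, was tested with limma 3.58.1 (Benjamini-Hochberg over all regions, threshold 0.05). P-values measure the spread between 2 pools per group. Shares carry 95% Wilson intervals. Functions were tested on simulated data.

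The members, lists and tests were chosen with earlier results of these data known. Named were all 10 genes, their TSS summits, the strongest distal summit and at most 5 like genes, with other genes named by position. The shares of H3K27ac summits and regions listed in 1 treatment, the second Axin2 summits and leaving out Axin2 were added after seeing the data. Alternatives comprised other windows, limits, overlaps, scalings and single replicates. Calculations used Python 3.11.15, scipy 1.17.1 and R 4.3.3.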

Additional observations from a re-analysis of the deposited data

How the results depend on the processing

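With 2 replicates per group, counts at the loci follow the listing limit and the window. Within 250 kb the consensus β-catenin summits were 104 in DMSO and 5 after C59, and the H3K27ac summits 166 and 134. Within 50 kb the H3K27ac summits were 57 and 37. No setting turned the direction of a difference in counts between treatments. With ATCAAAG alone the share with a core was 39.3%, against 15.1% of all summits. Without the Axin2 locus, an alternative added after seeing the data, the share of DMSO β-catenin summits inside a C59 peak was 0%, because all 4 such summits are at Axin2. With missing values set to the lowest fold enrichment, limma called 5 of 57 H3K27ac regions at the loci, and 1513 of 21703 over all regions, in place of 0. Of the 5 at the loci, 4 have no value in 1 library or more.

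The replicate block gave 0 called regions, as did the other scalings, the mean of summits, other windows and leaving out any 1 library. The numbers were not taken to pair the samples, since the correlation of same-numbered deviations was 0.0141. Uncalled H3K27ac changes near 0 at gene starts turned sign. Leaving out 1 library moved the log2 change from −0.30 to 0.19 at Wif1, from −0.070 to 0.042 at Znrf3, from −0.28 to 0.38 at Nkd2 and from −0.53 to 0.078 at Nkd1. With the mean of summits it was −0.0041 at Nkd2, −0.31 at Apcdd1 and 0.072 at Nkd1. The cause was not tested.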
